A study of Homo sapiens with 27 samples.

Results

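The regions described are the peaks of modified RNA in HepAD38 cells that were assigned to more than 1 gene. They are the rows of the m1A, m5C, m7G and ac4C peak lists whose gene field holds several names separated by commas. There were 1459 such peaks among 76940 peaks in all. The m1A list held 553 of 29708 peaks (1.86%, exact 95% Clopper-Pearson interval 1.71 to 2.02%). The m5C list held 379 of 21827 (1.74%, 1.57 to 1.92%), the m7G list 405 of 16942 (2.39%, 2.17 to 2.63%) and the ac4C list 122 of 8463 (1.44%, 1.20 to 1.72%). Without the ac4C list there were 1337 of 68477 peaks. The choice used the gene field alone, so read counts did not enter it.

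HepAD38 cells are a line from human liver cancer with an integrated copy of the hepatitis B virus genome, and the study mapped modified bases across its RNA. All 27 libraries came from these cells, labelled wild type, and the labels give the modification assayed as the only treatment. For m1A (1-methyladenosine), m5C (5-methylcytosine), m7G (7-methylguanosine) and ac4C (N4-acetylcytidine), 3 libraries of antibody-enriched RNA (IP) stood beside 3 libraries of unenriched input RNA, and 3 further libraries mapped pseudouridine (Psi). Total RNA went into a strand-keeping library kit with molecular identifiers, and the labels do not say if the 3 libraries of 1 group are separate cultures. Each antibody list has a single pooled IP level and a single pooled input level for a peak, as RPM (reads scaled to the sequencing depth). No value below thus has a replicate error, and intervals of ratios cover counting error of reads only. Intervals of shares of peaks treat peaks as independent, although several peaks can share a locus. The steps of the RPM values placed the pooled depth between 118320068 and 280714968 IP reads for m1A, m5C and m7G, at 17135274 IP reads for ac4C, and between 241116540 and 364905848 input reads.

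A peak gets several names when the gene models of an annotation share the place or when near-identical loci share the reads. A readthrough transcript starts in 1 gene, runs past its end and continues into the next gene, and annotations give it a hyphenated name that joins both parents. Primary microRNAs and small nucleolar RNAs often lie inside a host gene, recently duplicated genes can be too alike for short reads to separate, and ribosomal RNA genes stand in many near-identical repeats. Of the 4 modifications, m7G is best known from the mRNA cap, m1A and m5C from tRNA and rRNA as well as mRNA, and ac4C from rRNA and tRNA, where NAT10 writes it.

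Several of the gene sets pair a host gene with a microRNA, and those below are some of the microRNAs whose peaks are described further on. The sequences are from RefSeq for GRCh38.p14, 5′ to 3′, with the seed (bases 2 to 8) in capitals.
hsa-miR-3652: cGGCUGGAggugugagga
hsa-miR-1181: cCGUCGCCgccacccgagccg
hsa-miR-3655: gCUUGUCGcugcgguguugcu
hsa-miR-1244: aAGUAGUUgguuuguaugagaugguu
hsa-miR-711: gGGACCCAgggagagacguaag
hsa-miR-3917: gCUCGGACugagcagguggg
The hairpin of MIR302B (chr4:112648485-112648557, minus strand) is shown because the m1A and m5C peaks ended inside it at the same base. Its 23 capital letters are the bases inside both peaks, and they cover most of the 3p arm.
MIR302B hairpin: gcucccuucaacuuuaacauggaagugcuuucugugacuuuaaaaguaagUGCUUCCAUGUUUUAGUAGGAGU
The 80 bases before a RefSeq transcript start of U2AF1 (chr21:43107571-43107650, minus strand; the gene span itself reaches to 43107578) and of its copy U2AF1L5 (chr21:6499249-6499328, minus strand, LOC102724594 in RefSeq) are shown because peaks at both loci carry both names.
U2AF1: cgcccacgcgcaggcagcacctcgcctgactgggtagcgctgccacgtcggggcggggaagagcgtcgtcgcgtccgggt
U2AF1L5: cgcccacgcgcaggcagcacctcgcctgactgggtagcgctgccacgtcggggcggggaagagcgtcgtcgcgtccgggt
These stretches are the same at every base, and 299 of 300 bases were the same over the full promoter windows, from 250 bases before to 50 after the start. The genome sequence under the peaks themselves was not used here.

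The ac4C list stood apart from the other lists. Of 7 mesenchymal markers, the collagens COL1A1, COL1A2 and COL3A1, the matrix proteoglycans DCN and LUM, and VIM had peaks there, 6 of 7, with summed levels of 887 RPM in the IP against 3.21 RPM in the input. None of the 7 had a peak in the m1A, m5C or m7G list. Of 9 hepatocyte markers, 8 had peaks in each of those 3 lists and only SERPINA1 was not listed, whereas in the ac4C list HNF4A alone was listed, at 4.96 RPM in the IP beside 0.771 RPM in the input, and ALB, APOA1, APOB, TF, TTR, AFP and FGB were not. Endothelial markers had no peak in any list, and of 3 immune markers CD68 had a peak in each. In bulk RNA, fewer cells of a type and less RNA per cell cannot be told apart. The ac4C IP thus held transcripts that its own input hardly held, and whether both came from the same RNA cannot be told from these values. An ac4C ratio below can therefore not be read as enrichment of modified RNA alone, also where it is as high as 881. The main counts over lists are given with and without ac4C.

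The 1459 peaks named 399 different gene sets, built from 672 names, and without ac4C 1337 peaks named 381 sets, built from 641 names. Of the names, 648 were current RefSeq symbols, 19 were found through an older symbol or gene ID, and 5 matched no single gene. By RefSeq type, 453 names were protein-coding genes, 83 long noncoding RNAs, 52 microRNAs, 36 transcribed pseudogenes and 20 rRNAs. Most peaks had exactly 2 names, namely 497 in the m1A list, 325 in m5C, 349 in m7G and 119 in ac4C. The highest number was 9 names in the m1A, m5C and m7G lists and 3 in ac4C. By RefSeq gene spans, every pair of genes was nested, one inside the other, in 235 sets, and every pair overlapped in 74 further sets. Some pairs overlapped in 47 sets and no pair in 36. Without ac4C these numbers were 226, 70, 46 and 32. A further 5 sets held a name without RefSeq entry, and in 2 sets the names now stand for 1 gene.

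Readthrough sets were the most common kind. They made up 875 of the 1459 peaks (60.0%) and 230 of the 399 sets, and without ac4C 796 of 1337 peaks (59.5%) and 221 of 381 sets. By list, readthrough sets held 345 m1A, 217 m5C, 234 m7G and 79 ac4C peaks. Small RNAs with a host gene held 42, 22, 34 and 9 peaks, and sets with a LOC, LINC or antisense RNA 23, 24, 18 and 10. Clusters of related genes held 14, 9, 9 and 2. The remaining sets were split after their names had been seen. Copies held 50 m1A, 38 m5C, 32 m7G and 14 ac4C peaks. These were sets with alike gene symbols and no known overlap of RefSeq spans, and sequences were not compared for this. Repeats of rRNA held 4, 34, 16 and 0 peaks, and other overlapping genes 75, 35, 62 and 8.

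Enrichment was read as the RPM ratio, the IP level over the input level of the same peak. The median ratio of the peaks naming several genes was 1.73 in m1A beside 1.67 over all m1A peaks, and 0.887 in m5C beside 1.01. It was 1.84 in m7G beside 1.36, and 11.1 in ac4C beside 11.9. The m7G list thus had the clearest difference between these peaks and all peaks, in the direction of higher ratios. In m1A, 258 of the 553 peaks reached a ratio of at least 2 (46.7%), beside 44.7% of all m1A peaks. In m5C, 102 of 379 did (26.9%, beside 32.1%), and in m7G 192 of 405 (47.4%, beside 37.6%). All 122 ac4C peaks did, beside 99.6% of the list, so the ac4C count says nothing about these peaks. Ratios of 0.5 or less were found for 46 m1A peaks (8.32%, beside 10.8%), 106 m5C peaks (28%, beside 28%), 1 m7G peak (0.247%, beside 0.0472%) and no ac4C peak (beside 0%). The m1A and m5C shares were near those of the whole lists.

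By an exact binomial test of the recovered reads, adjusted over all peaks of a list (Benjamini-Hochberg), the IP was higher at 350 m1A peaks beside 60.6% of the list, 136 m5C peaks beside 42.5%, 315 m7G peaks beside 66.2% and 122 ac4C peaks beside 100%. The IP was lower at 148 m1A peaks beside 28.3% of the list, 176 m5C peaks beside 42.5%, 54 m7G peaks beside 21.5% and 0 ac4C peaks beside 0%. This test compares pooled libraries and covers counting error only.

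The fold changes in the authors' deposited tables are on another scale than the RPM ratio. All 553, 379, 405 and 122 peaks have a positive log2 fold change in the authors' deposited tables. Positive values were not counted over the whole lists, so this marks no trait of peaks with several names. Among the peaks with several names, 167 m1A peaks had an RPM ratio below 1 (30.2%, beside 33.0% of all m1A peaks). So did 207 m5C peaks (54.6%, beside 49.7%) and 75 m7G peaks (18.5%, beside 27.7%). How the authors computed those fold changes is not given in the sources used, and the values below are RPM ratios.

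Peaks naming several genes had their middle near the start of a gene more often than peaks of the whole list. The distance ran from the middle of the peak span, introns included, so spliced peaks that begin at a gene start can count as elsewhere. Only peaks touching the RefSeq span of a named gene entered, 540 m1A, 351 m5C, 390 m7G and 120 ac4C peaks with several names. The middle was within 500 bases of a named gene's 5′ end for 15.2% in m1A (6.17% of all such m1A peaks). The shares were 15.7% in m5C (7.23%), 28.5% in m7G (19.3%) and 25% in ac4C (9.77%). A peak with several names also has more starts to be near. In m7G the median ratio was 3.59 near a 5′ end and 1.42 elsewhere for peaks with several names, and 3.67 and 1.17 for peaks with 1 name. In m1A the corresponding medians were 4.44 and 1.51, against 7.37 and 1.55 for 1 name. In m5C the order was the opposite, 0.629 near a 5′ end and 0.947 elsewhere, against 0.501 and 1.07. A pseudouridine peak overlapped 12.7% of these peaks in m1A (10.4% of all), 13.5% in m5C (9.95%), 16.5% in m7G (15.4%) and 9.02% in ac4C (5.44%). Peak lengths were not matched for these shares. The median covered length was 125 bases beside 100 over all peaks in m1A and 150 beside 125 in m5C, and equal in m7G and ac4C.

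The insulin-like growth factor 2 locus, the fetal growth factor gene read through from the insulin gene INS as INS-IGF2, carried the most reads of any set. IGF2 lies at chr11:2129117-2149566 and INS-IGF2 reaches to 2161209. Its 30 peaks held 36.7% of the IP RPM of all m1A peaks naming several genes, 63.0% in m5C, 47.5% in m7G and 25.6% in ac4C. The largest peaks lay over the same stretch in 3 lists. In m1A, chr11:2131587-2133211 held 18465 RPM in the IP beside 11854 RPM in the input. In m5C, chr11:2131337-2133186 held 20743 and 15623 RPM, and in m7G chr11:2131412-2132661 held 19938 and 18750 RPM. These high-coverage peaks therefore had ratios close to 1, between 1.06 and 1.56.

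The smaller peaks of the IGF2 locus differed between the lists. The 12 m1A peaks ran from 1.37 to 58.1 with a median of 12.9, and the peak at chr11:2133530-2133654 was the highest of them, at 32.3 RPM in the IP beside 0.556 RPM in the input. The 7 m5C peaks ran from 0.188 to 1.33 with a median of 0.588. The 7 m7G peaks stayed between 0.910 and 1.5 with a median of 1.12, and the 4 ac4C peaks between 3.26 and 8.35 with a median of 5.36. One stretch, chr11:2133530-2133579, was listed with identical ends in m5C (ratio 0.246) and m7G (1.12), inside the m1A peak with ratio 58.1 (counting interval 50.6 to 67.1). At chr11:2129137-2129311 the m1A ratio was 6.14 and the m5C ratio 0.729. The lists were normalised separately, so a ratio is set against its own input, and the ratios of different lists stand side by side only.

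Most readthrough peaks named 1 parent gene beside the readthrough locus, and the upstream and downstream parent could be told from the hyphenated name. In m1A, 142 peaks named the upstream parent and 163 the downstream parent, so 46.6% were upstream (40.9 to 52.3%). In m5C 75 were upstream and 118 downstream (38.9%, 31.9 to 46.1%), in m7G 125 and 75 (62.5%, 55.4 to 69.2%) and in ac4C 35 and 39 (47.3%, 35.6 to 59.3%). In m7G more peaks were on the upstream parent. In the other lists more were on the downstream parent, with intervals that reached past 50% in m1A and ac4C but not in m5C. These intervals treat peaks as independent, although several peaks can share a locus.

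The m7G ratios followed the same order. The median ratio was 2.64 for upstream and 1.1 for downstream m7G peaks, and 0.760 and 1.20 in m5C. In m1A the medians were 1.61 and 1.65, close to each other, and in ac4C 9.26 and 15. Of the 125 upstream m7G peaks, 52 had their middle within 500 bases of a 5′ end. Their median ratio was 3.68, against 1.53 for the other 73. The same held for only 6 of the 75 downstream m7G peaks. Leaving out the peaks with their middle so near brought the quotient of the upstream and downstream m7G medians from 2.41 to 1.44. Spliced peaks that begin at a 5′ end but have their middle farther away were not left out. Among loci with peaks on both parents, the median ratio of the upstream peaks was the higher at 19 of 23 loci in m7G, 7 of 23 in m5C, 15 of 35 in m1A and 2 of 3 in ac4C. The direction in m1A depended on the unit, since the quotient was 0.978 over peaks, 1.49 with 1 value per gene set and 1.06 without the IGF2 peaks. In ac4C it turned from 0.616 to 1.05 in the more significant 50% of the list by the authors' p-value.

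Single loci show how the lists differed along a readthrough pair. The loci in this paragraph were chosen after their values were seen. SENP3 encodes a SUMO protease and EIF4A1, downstream of it, the RNA helicase of the cap-binding complex. In m1A, the longer SENP3 peak held 85.8 RPM in the IP against 4.58 RPM in the input (18.7) and the shorter 9.29 against 3.53 RPM (2.63). The 3 m1A peaks of EIF4A1 had ratios of 0.744, 0.415 and 0.877, all below both SENP3 peaks. The m5C list had the opposite order, with a ratio of 0.439 at its only SENP3 peak and of 3.66, from 98.6 against 26.9 RPM, at its only EIF4A1 peak. In ac4C the SENP3 peak had a ratio of 19.3 and the EIF4A1 peaks 2.47 and 3.01. In m7G the SENP3 peak, at 1.6, lay between both EIF4A1 peaks, at 6.48 and 0.742. TMX2-CTNND1 joins a thioredoxin-related membrane protein to catenin delta-1. Its m7G peak over TMX2 had 52.1 against 8.07 RPM (6.45), and the 4 m7G peaks over CTNND1 ran from 0.678 to 0.796. In m1A the TMX2 peak had a ratio of 6.92, and the 5 CTNND1 peaks ran from 0.330 to 2.30. In both lists the TMX2 peak was above every CTNND1 peak. At SERF2-C15ORF63, the SERF2 peak held 759 RPM in the m7G IP against 104 RPM in the input (7.26), and the HYPK peak 810 against 376 RPM (2.16).

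Several readthrough sets led the lists at either end. In m1A the highest ratio belonged to DNAJC25, a J-domain chaperone gene, with DNAJC25-GNG10. Its 25-base peak had 771 IP reads and 7 input reads (ratio 143, counting interval 69.2 to 357). The next was ZFP91 with ZFP91-CNTF, where ZFP91 encodes a ubiquitin ligase. The peak at chr11:58579138-58579437, close to the start of ZFP91 at 58579063, held 114 RPM in the IP beside 1.29 RPM in the input (88.4). The following ZFP91 peak, with 349 against 436 RPM, had a ratio of 0.801, and the other m1A peaks of the set, farther along the gene, had 3.03 and 1.27. In m7G a peak inside the same stretch had a ratio of 3.8, and in ac4C a 25-base peak there one of 18.1. HNRNPUL2 with HNRNPUL2-BSCL2, an RNA-binding protein gene beside the seipin gene, came next in m1A (81.9, 630 against 10 reads) and was also among the highest in m7G (10.4, 2808 against 267 reads). The lowest m1A ratios of readthrough sets were those of CENPS (0.253), ANKHD1 (0.269) and BMI1 (0.276), each named with its readthrough locus.

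At ANKHD1, an ankyrin-repeat gene, 12 m1A peaks had a median ratio of 0.669 and 4 m5C peaks one of 2.23. The largest m5C peak there held 885 RPM in the IP beside 112 RPM in the input (7.91), over a stretch where the m1A peak had 210 against 292 RPM (0.720). The downstream gene of BCL2L2-PABPN1 encodes the nuclear poly(A)-binding protein. Its 4 m1A peaks had ratios from 3.06 to 7.45 and its 4 m5C peaks from 0.227 to 11.0, and the 3 m7G peaks lay between 0.881 and 1.53. The last long m5C peak there held 658 RPM against 60.0 RPM and overlapped an m1A peak with 211 against 28.3 RPM, so both IP levels exceeded their inputs over that stretch.

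After IGF2, the readthrough sets with the most input reads were those of RPL17, LUC7L2 and RPL36A, and their ratios lay on different sides of 1 in different lists. The peak of RPL17 with C18orf32 and their readthrough had 534 RPM in the m1A IP and 888 RPM in the input (0.601). In m5C it had 1129 against 497 RPM (2.27), and in m7G 441 against 626 RPM (0.704). For RPL36A, HNRNPH2 and their readthrough, the ratios were 0.407 in m1A, 0.886 in m5C and 1.43 in m7G. The longest peaks of LUC7L2, a splicing-factor gene named with FMC1-LUC7L2, had ratios of 0.597, 0.623 and 1.18. HSPE1, the mitochondrial co-chaperonin gene, had 384 against 157 RPM in m7G (2.44), 226 against 309 RPM in m1A (0.730), and 0.345 and 0.407 in m5C. Over the peaks just given, none of the 4 sets was higher in the IP in all 3 lists.

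In m5C the highest ratio of a readthrough set was that of ANKRD20A4 with ANKRD20A4-ANKRD20A20P (104, 23.7 against 0.228 RPM). The lowest was that of the nucleoside diphosphate kinase gene NME1 with NME1-NME2 (0.143, 4.31 against 30.2 RPM). In m7G, BMS1P2 with BMS1P2-AGAP9 was the highest at 14.4 (1041 against 71 reads). ATP5F1E, a subunit gene of mitochondrial ATP synthase, with SLMO2-ATP5E was the single m7G peak at 0.5 or less (0.468). In ac4C, MAGEA10 with MAGEA10-MAGEA5, cancer-testis antigen genes, had 272 IP reads and 6 input reads (881, counting interval 400 to 2423). SEPTIN5 with SEPT5-GP1BB had 70 IP reads and no input read, at least 454-fold higher against a floor of 3 pooled input reads. The lowest ac4C ratios were those of EIF4A1 (2.47), HSPE1 (2.74), CHMP3 (2.78) and the copies SPDYE2 and SPDYE2B (2.87).

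Readthrough names seldom stood alone. A readthrough locus was the only name of 23 m1A peaks at 11 loci, 18 m5C peaks at 8 loci, 14 m7G peaks at 7 loci and 6 ac4C peaks at 5 loci. At CFAP298-TCP10L the same 225 bases, chr21:32564530-32564754, had a ratio of 1.37 in m1A and 33.9 in m5C (12.4 against 0.365 RPM). Of all genes named by a peak with several names, 27.8% in m1A, 23.9% in m5C, 26.4% in m7G and 16% in ac4C were also the only name of another peak in the same list.

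Small RNAs with a host gene accounted for 107 peaks and 59 sets, and for 98 peaks and 57 sets without ac4C. The peak touched the annotated small RNA in 103 of the 107, but at least 50% of the peak lay inside it in only 23. Most of these peaks thus covered mainly host RNA. Of the 52 microRNA genes named, 44 had a mature sequence in RefSeq, 57 sequences in all, and their 57 seed groups held 1 mature sequence each, so no seed was shared. The class medians were 2.32 in m1A, 0.775 in m5C and 2.60 in m7G.

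HSP90B1, the endoplasmic reticulum chaperone, with MIR3652 carried the most reads of this class. The m1A peak at chr12:103930410-103932850 held 3874 RPM in the IP beside 3365 RPM in the input (1.15), and m7G had the same ends with 4023 against 2540 RPM (1.58). In m5C the level was 405 against 1262 RPM (0.321). The ac4C peak covered only the first 25 bases of the gene, with 19.7 against 3.09 RPM (6.38). MIR3652 lies at the start of HSP90B1, and its mature sequence was whole inside the m1A, m5C and m7G peaks. CDC37, the HSP90 co-chaperone for kinases, with MIR1181 gave 3.68 in m1A (1479 against 402 RPM) and 1.33 in m7G. In m5C it gave 0.252 (319 against 1267 RPM), and in ac4C 5.30 over 25 bases. The spliceosome gene IK with MIR3655 gave 0.867 in m1A, 0.634 in m5C, 1.33 in m7G and 6.30 in ac4C. For all 3 hosts the m5C IP level was below its input.

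The prothymosin gene PTMA was listed with MIR1244-1 to MIR1244-4, whose mature sequence is identical where RefSeq holds it. Of the 4 loci, only MIR1244-1 lies under the peak. The m1A peak covered 1100 bases with 7845 against 4680 RPM (1.68). The m5C peak covered 225 bases with 150 against 7.91 RPM (19.0), so the short m5C peak stood higher above its input than the long m1A peak. MIR302B lies in the host transcript MIR302CHG of the microRNA cluster known from pluripotent cells. The m5C peak there held 68.6 against 9.37 RPM (7.32), and the m1A peak, which ended at the same hairpin base, 14.1 against 16.2 RPM (0.868).

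COL7A1, the type VII collagen gene at chr3:48564073-48595329, with MIR711 (chr3:48578902-48578977) was among the highest m1A sets. The m1A peak held 735 RPM in the IP beside 11.8 RPM in the input over 58 blocks and 3075 bases (62.1). The m5C peak over part of it held 35.1 against 106 RPM (0.331). STMN1, a microtubule-destabilising protein gene, with MIR3917 had the same 50 bases in m7G and ac4C. The ratios were 6.03 (508 against 83 reads) and 13.2 (67 against 99 reads, from unequal depths). TMEM258 with MIR611 came next to the top in m7G (13.0, 620 against 47 reads), followed by RPL32 with the small nucleolar RNA SNORA7A (10.4, 124 against 11.9 RPM). RPL32 with SNORA7A had a ratio of 0.206 in m5C. The cytoplasmic poly(A)-binding protein gene PABPC1 with MIR7705 was among the highest in m5C (69.8, 404 against 5.80 RPM), while its m1A peak had 0.837. DNM3OS with MIR199A2 was listed in ac4C only, with no input read, and was at least 285-fold higher in the IP.

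Some copy sets gave matching peaks at more than 1 locus. In 7 copy sets, peaks in the same list could be matched across 2 loci by a constant distance of at least 50000 bases, within 100 bases, which gave 28 matched pairs. They were CBS/CBSL, CRYAA/CRYAA2, NUDT4B/NUDT4P2, SLX1A/SLX1B, SMIM11A/SMIM11B, SPDYE2/SPDYE2B and U2AF1/U2AF1L5. The higher ratio of a pair was at most 1.1 times the lower in 24 of the 28, with a median quotient of 1.03. The counting intervals overlapped in 23 pairs. Among 163 pairs of other peaks of the same sets and lists, the median quotient was 2.01 and 15 were within 1.1. Matched peaks cover corresponding places of copies that can receive the same reads, whereas the other pairs cover different places. That matched peaks were closer thus follows from how the pairs were chosen. Reads placed at both copies are not independent measurements.

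CBS encodes the transsulfuration enzyme cystathionine beta-synthase. Its first m1A pair, at chr21:6444969-6445568 and chr21:43053304-43053903, had 58.1 against 28.7 RPM at the first copy and a ratio of 2.02. SMIM11A and SMIM11B, a small membrane protein gene and its copy, had ratios of 0.589 and 0.597 in m1A, 3.85 and 3.77 in m5C and 1.16 and 1.18 in m7G. The lens crystallin gene CRYAA and CRYAA2 had 8.83 and 8.56 in m1A, 1.24 and 1.28 in m5C and 2.65 and 2.59 in m7G. NUDT4B and NUDT4P2 had 0.227 and 0.226 in m5C. Reads placed at both copies are not independent, and the lists were normalised separately, so closeness within a list cannot gauge differences between lists.

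U2AF1 encodes the splicing factor subunit that recognises the end of an intron, and it gave 24 peaks with U2AF1L5. The longest m1A pair had 142 against 153 RPM (0.928) at the U2AF1L5 locus and 119 against 128 RPM (0.933) at U2AF1. The largest quotient of any pair, 1.42, was the ac4C pair nearest the gene start of this set, with ratios of 6.46 (counting interval 5.90 to 7.07) and 4.56 (4.13 to 5.02). The m1A pair ending near the start of the gene had 1.6 and 1.86, with intervals that did not overlap, and input levels of 14.3 and 7.26 RPM. These peaks covered 275 and 200 bases, so they did not span the same stretch of both copies. Of 20 copy sets, RefSeq held promoter windows for both copies of 8, and 4 of these were identical at all 300 bases, namely CRYAA, SLX1A, SPDYE2 and SULT1A3 with their copies. BOLA2 and BOLA2B matched at 97 of 300 positions, FAM72C and FAM72D at 93 and CBWD5 and CBWD6 at 87, when windows were set base against base without gaps. Each of these counts is for the best pair of listed starts, and windows were not shifted against each other. A low count is therefore no measure of how alike the copies are.

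Ribosomal RNA repeats gave 54 peaks, and sets of up to 9 rRNA names were the longest in the lists together with a set of 9 UGT1A genes. Positions below count from the first base of the named rRNA in RefSeq. The repeats were measured on chromosome 21 and on a scaffold assigned to chromosome 22 without a set position there. All 4 m1A peaks were high. Those at the 5′ end of 28S rRNA had ratios of 19.3 (bases -65 to 109) and 12.5 (bases -80 to 69), with 72.9 against 3.78 RPM and 93.6 against 7.46 RPM. The peak over the start of 5.8S rRNA (bases -20 to 29) had 17.1, and the one in the transcribed spacer of the 45S gene (bases 776 to 950) had 27.9. No m1A peak naming several genes lay elsewhere in the repeat.

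The 34 m5C rRNA peaks had a median ratio of 0.767, and 3 of them reached 2. Both peaks at the 3′ end of 28S rRNA were the highest, with ratios of 17.5 (300 against 35 reads, counting interval 12.3 to 25.6) and 16.4 (442 against 55 reads, 12.4 to 22.1). They came from different repeats and lay over bases 4910 to 5059 and 4895 to 5094. The other was a 28S peak over bases 835 to 1034 (4.19). The lowest, in the 45S spacer, held 13.2 RPM in the IP beside 74.5 RPM in the input (0.178).

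The 16 m7G rRNA peaks lay between 0.996 and 3.06 except 1. That peak, over bases 1618 to 1667 of 18S rRNA, had 310 IP reads and 36 input reads, a ratio of 8.48 (counting interval 5.995 to 12.3). As background, the 3′ part of 18S rRNA carries a guanosine that BUD23 methylates to m7G. The ac4C list held no peak with several rRNA names.

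Genes that overlap without being a readthrough locus included imprinted genes and genes that share exons. PEG3, an imprinted zinc-finger gene, and ZIM2 have the same RefSeq start, base 56840726 of chromosome 19. At the peak over that start, chr19:56840594-56840729, m1A had 79.5 against 5.46 RPM (14.6) and m7G 68.3 against 30.5 RPM (2.24), while m5C had 0.465 against 3.21 RPM over 25 of its bases (0.145). Away from the start, the other 9 m1A peaks of this pair ran from 0.364 to 3.10 and the other 7 m7G peaks from 0.709 to 1.41, so in both lists the ratio was the highest at the shared start. SNRPN and SNURF, which are read from 1 imprinted transcript, had 371 against 43.0 RPM in m7G (8.61) and 23.1 against 11.2 RPM in m1A (2.07) at the start of SNURF.

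LIME1, a membrane adaptor gene, and ZGPAT, a zinc-finger gene that overlaps its start, gave the lowest m5C ratios of all and among the higher m1A ratios. The m1A peaks had 312 against 15.5 RPM (20.1) and 115 against 3.93 RPM (29.4), and the m5C peaks inside them 7.57 against 53.4 RPM (0.142) and 1.12 against 8.97 RPM (0.124). Of the gene clusters, the UGT1A genes encode bilirubin and drug glucuronosyltransferases and share their last exons. Their peak of 9 names had a ratio of 0.330 in m1A (1.21 against 3.66 RPM) and 0.763 in m5C (0.845 against 1.11 RPM). H3-3A, which encodes histone H3.3, with its pseudogene H3P6 had 4.91 at 1 m7G peak and 0.585 at the other, and 1.3 in m1A. The protocadherin pair PCDHGA12 and PCDHGC3 led the ac4C list, with 140 IP reads and no input read, at least 908-fold higher.

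Sets with a LOC, LINC or antisense RNA were led in input reads by ALDOA, the glycolytic aldolase, with LOC112694756. Its 4 m1A peaks ran from 2.27 to 4.71 and its 3 m5C peaks from 0.161 to 1.31. Its first m7G peak, chr16:30064169-30064298, had a ratio of 5.02, and the same ends had 4.71 in m1A. FAM177A1 with LOC101927178 had 414 against 231 RPM in m5C (1.79) and 154 against 134 RPM in m7G (1.15). For APPL1, an endosomal adaptor gene, with LOC105377102 the m1A ratio was 0.555, the m5C ratio 3.34 and the m7G ratio 1.07. SYT15, a synaptotagmin gene, with LOC102724488 had the highest m5C bound, with 497 IP reads and no input read, at least 338-fold higher. In ac4C, TP53TG3D with LOC102723713 had 88 IP reads and no input read, at least 570-fold higher. In all, 5 m5C and 5 ac4C peaks with several names had no input read, and no such m1A or m7G peak. Peaks without an input read were not counted over the whole lists, so these counts mark no trait of peaks with several names.

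Many gene sets recurred between lists. Of the 399 gene sets, 130 were named in exactly 1 list, 130 in 2, 102 in 3 and 37 in all 4, and 121 sets were in all 3 lists other than ac4C. Of the 37 sets in all lists, 22 were readthrough sets, 7 copies, 3 small RNAs with hosts, 2 LOC sets, 2 other overlapping genes and 1 cluster. Those with the most IP RPM were, in order, IGF2, HSP90B1, CDC37, HYPK, PABPN1, IK, ANKHD1, ZFP91, U2AF1 and HSPE1 with their partners. HYPK, a chaperone of the N-terminal acetyltransferase complex, had 1 peak per list when named with SERF2-C15ORF63 alone, with ratios of 4.52 in m1A, 0.248 in m5C, 2.16 in m7G and 19.9 in ac4C. Gene sets named in no other list numbered 36 in m1A (12.7%), 30 in m5C (13.6%), 46 in m7G (18.3%) and 18 in ac4C (20.5%). Of the genes that were the only name of a peak, 6.43%, 10.9%, 4.98% and 14.5% were the only name of a peak in no other list. A set had to match in every name and a single gene in 1 name only, so these shares are not like for like.

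By position, 250 m1A peaks (45.2%) overlapped an m7G peak naming several genes by at least 1 base, and 270 m7G peaks (66.7%) overlapped such an m1A peak. Between m1A and m5C the counts were 228 (41.2%) and 221 (58.3%), and between m5C and m7G 152 (40.1%) and 165 (40.7%). With ac4C, 61 m1A peaks (11.0%), 38 m5C peaks (10.03%) and 46 m7G peaks (11.4%) overlapped an ac4C peak of this kind. Conversely, 57 ac4C peaks (46.7%) overlapped an m1A peak, 40 (32.8%) an m5C peak and 44 (36.1%) an m7G peak. Peaks naming several genes overlapped a peak of any kind in another list about as often as all peaks did, or more often. For m1A against m7G the shares were 47.9% of these peaks and 35.1% of all m1A peaks, and for m7G against m1A 69.1% and 65.6%. They were 45.2% and 38.6% for m1A against m5C, 59.9% and 52.7% for m5C against m1A, 41.4% and 34.3% for m5C against m7G, and 44.4% and 46.7% for m7G against m5C. For ac4C they were 48.4% and 36.2% against m1A, 34.4% and 24.4% against m5C, and 36.1% and 23.8% against m7G. Peak lengths were not matched in these shares. Overlap with several-name peaks of any other antibody held for 356 m1A, 248 m5C and 296 m7G peaks, and for 347, 243 and 291 without ac4C.

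Identical ends were rarer. In 57 places a peak with several names had the same start and end in 2 lists, in 4 places in 3 lists, and in no place in all 4. Without ac4C there were 51 places in 2 lists and 4 in 3. An m7G peak had the same ends as 6.87% of these m1A peaks and as 2.83% of all m1A peaks. At the 38 places shared by m1A and m7G, the m7G ratio was the higher at 28. This was not counted over all 840 m1A peaks with the same ends as an m7G peak. The lists were also normalised separately, so this count is no measure of the marks. The places with several names in 3 lists were a pair of SPECC1L places and the matching SPDYE2 and SPDYE2B loci. At chr22:24330278-24330427, SPECC1L had 7.22 against 17.9 RPM in m1A (0.404), 27.3 against 14.3 RPM in m5C (1.91) and 14.5 against 13.1 RPM in m7G (1.11). At SPDYE2 the order of m1A and m5C was the opposite, 0.942 in m1A, 0.447 in m5C and 1.43 in m7G. Some places with several names in 1 list were listed under a single name in another. Beside the 228 m1A peaks that overlapped an m5C peak with several names, 45 overlapped an m5C peak with 1 name. Against m7G 49 m1A peaks did so, beside 250, and against ac4C 25, beside 61, and a peak could do both. The highest share was 8.89%, for m7G peaks over m1A peaks.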

How the data were processed

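The authors deposited, for each antibody, a peak list with pooled RPM (reads scaled to the library total) in IP and input, a log2 fold change, a p-value and a false discovery rate, per the file headers. The submitters' processing notes name hg38, HISAT2, StringTie and DESeq. The sources used here name no peak caller for the 4 antibody lists. For Psi the authors pooled 3 libraries and called peaks with MACS 2.2.6 without control, per the file headers, giving signal pileup, −log10 p and q values and fold enrichment. Only Psi positions were used here.

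Peaks with a comma in the gene field were taken, and their names were matched to RefSeq (GRCh38.p14). Dividing RPM by the worth of 1 read gave integers (tolerance 0.1 read), taken as pooled counts. Ratios are IP over input RPM. A peak with no input read got a lower bound from 3 pooled input reads. Calls were ratios of at least 2 or at most 0.5, or an exact binomial test (Benjamini-Hochberg, 0.05, SciPy 1.17.1). Intervals are 95%. Those of ratios cover counting error of reads only, and those of shares treat peaks as independent. Named sets were, per list, the 4 highest and 4 lowest ratios with at least 10 reads, the 10 sets with the most IP RPM in all lists, the 4 sets with the most input RPM per kind, and the 5 with the most names. Other sets named were chosen after their values were seen. The call script was tested on simulated data. The peaks, kinds and lists were chosen with earlier results of these data known. Alternatives were another fold, test, overlap, the more significant 50% of each list by the authors' p-value, 1 value per gene set, and leaving out lists or loci.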

Additional observations from a re-analysis of the deposited data

How the results depend on the processing

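No paired analysis was possible because each list holds 1 pooled IP and 1 pooled input value per peak, and for the same reason no replicate could be left out. Of 78 alternatives over 29 results, 55 kept their value within the range set for them, 19 moved and 4 reversed. For counts that range was a fixed factor either way. Some alternatives could not move a value. No m1A or m7G peak lacked an input read, so a lower floor left their medians as they were. All 122 ac4C peaks had ratios of at least 2, so a lower fold could not change their count. The 55 are therefore no measure of stability. In the more significant 50% of each list by the authors' p-value, 306 m1A, 213 m5C, 232 m7G and 68 ac4C peaks named several genes, and the median ratio was 2.35 in m7G and 8.98 in ac4C. Without peaks where 1 name is the readthrough locus of another, 227, 178, 183 and 50 peaks remained. With 1 value per gene set the m7G median was 2.43. The exact binomial test counted 148 m1A, 176 m5C and 54 m7G peaks as lower and 315 m7G peaks as higher, more than the fold rule. The quotient of upstream and downstream readthrough medians (0.978 in m1A, 2.41 in m7G, 0.616 in ac4C) had alternatives chosen after seeing the data. In m1A it reversed to 1.49 per gene set, 1.08 in the more significant 50% and 1.06 without IGF2. In m7G it was 1.44 without peaks whose middle lay within 500 bases of a 5′ end. In ac4C it reversed to 1.05 in the more significant 50%. Gene sets in all lists numbered 64 when 2 names in common were enough, 13 in the more significant 50%, and 121 without ac4C. The cause of these changes was not tested beyond the smaller number of peaks or lists that each setting uses. The ac4C IP had the lowest depth, 17135274 reads.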
